A study of Mus musculus with 6 samples.

Results

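The mitochondrial ribosomal proteins are the nuclear-encoded proteins that form the ribosome of mitochondria. They were taken as every protein-coding gene in the deposited mouse table whose symbol begins with Mrpl or Mrps followed by a digit, and 78 of the 22032 genes in the table met this rule. RNA was sequenced from chondrocytes of the mouse knee at 2 stages, with 3 embryonic samples and 3 adult samples. The embryonic cells came from embryos that the methods place at embryonic day 16.5, although the sample labels give this number in weeks, and the adult cells came from B6 males aged 2 months. At both stages cells were sorted for BMPR1B, a BMP receptor on the surface of chondrocytes, after removal of cells bearing CD31, CD45, Ter119 or alkaline phosphatase. How many animals went into each sample is not given in the sources used here, and these sources name no transgene or treatment. In such bulk samples, fewer cells of a type and less RNA per cell cannot be told apart.

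The mitoribosome translates the few messages encoded by mitochondrial DNA, all of which specify subunits of the respiratory chain and ATP synthase. Its ribosomal RNAs come from mitochondrial DNA, while all of its proteins are made in the cytosol and imported. Some of these proteins have counterparts in bacterial ribosomes, and others are found only in mitochondria. Articular chondrocytes live in poorly oxygenated cartilage and draw much of their ATP from glycolysis.

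By the current nomenclature 51 of the 78 genes encode proteins of the large subunit, 26 encode proteins of the small subunit and Mrps36 encodes neither. The large-subunit count includes Mrps30 (mL65) and Mrps18a (mL66), whose symbols were given when they were thought to belong to the small subunit. Mrps36 is now known as KGD4, a component of the 2-oxoglutarate dehydrogenase complex. In this nomenclature 46 of the proteins bear the name of a bacterial counterpart and 31 bear mitochondrial names of their own, Mrps18a and Mrps18b (mS40) among them although both are related to bacterial S18. All 78 genes had a mean of at least 1 TPM (a transcript level scaled for transcript length and for the total of the sample) and were tested.

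Of the 78 genes, 11 lie on chromosome 11 (14.1%, against 8.02% of the protein-coding genes tested) and 8 on chromosome 17 (10.3% against 4.78%). Many genes of this family share their start region with a neighbour. In the annotation used, 33 of the 78 genes (42.3%) had the start of another protein-coding gene within 1000 bases on the opposite strand, against 2003 of the 12744 protein-coding genes tested (15.7%). Mrps11 and Mrpl46, a gene of each subunit on chromosome 7, start 412 bases apart. Mrps12 starts 172 bases from Sars2, the mitochondrial seryl-tRNA synthetase gene, Mrpl27 starts 197 bases from Eme1, a DNA repair endonuclease gene, and Mrpl18 starts 644 bases from Tcp1, a subunit gene of the cytosolic chaperonin. The promoter of 1 gene from each of these 4 pairs is shown because the stage differences of the neighbours are compared later. They are RefSeq sequences of build GRCm38.p6 from 250 bases before to 50 bases after the start, at chr7:78782881-78783180 (plus strand) for Mrps11, chr7:28741772-28742071 (minus strand) for Mrps12, chr11:94653541-94653840 (plus strand) for Mrpl27 and chr17:12916042-12916341 (minus strand) for Mrpl18. The annotation used for the distances places the start of Mrpl18 at 12916345, and the window printed for it, set by the RefSeq start, lies wholly after that position. Capitals mark the YY1 motif letters in Mrps11 and Mrps12 and the ETS motif letters in Mrpl27 and Mrpl18, in either orientation.
Mrps11: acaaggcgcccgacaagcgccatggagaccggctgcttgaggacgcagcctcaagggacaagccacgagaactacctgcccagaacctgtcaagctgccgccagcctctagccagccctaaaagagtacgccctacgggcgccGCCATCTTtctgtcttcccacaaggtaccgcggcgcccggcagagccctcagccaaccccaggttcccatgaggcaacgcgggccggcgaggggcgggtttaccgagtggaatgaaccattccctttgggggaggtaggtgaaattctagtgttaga
Mrps12: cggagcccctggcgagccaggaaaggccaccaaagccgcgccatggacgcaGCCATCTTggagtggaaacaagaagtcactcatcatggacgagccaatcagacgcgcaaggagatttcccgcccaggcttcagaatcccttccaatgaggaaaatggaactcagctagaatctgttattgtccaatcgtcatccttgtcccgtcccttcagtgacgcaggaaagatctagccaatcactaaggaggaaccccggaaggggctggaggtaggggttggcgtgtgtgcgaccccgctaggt
Mrpl27: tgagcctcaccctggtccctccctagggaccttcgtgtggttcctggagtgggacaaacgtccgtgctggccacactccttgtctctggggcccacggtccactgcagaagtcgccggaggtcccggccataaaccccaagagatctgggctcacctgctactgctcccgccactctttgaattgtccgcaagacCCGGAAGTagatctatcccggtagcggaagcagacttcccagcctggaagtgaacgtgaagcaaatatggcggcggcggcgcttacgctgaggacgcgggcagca
Mrpl18: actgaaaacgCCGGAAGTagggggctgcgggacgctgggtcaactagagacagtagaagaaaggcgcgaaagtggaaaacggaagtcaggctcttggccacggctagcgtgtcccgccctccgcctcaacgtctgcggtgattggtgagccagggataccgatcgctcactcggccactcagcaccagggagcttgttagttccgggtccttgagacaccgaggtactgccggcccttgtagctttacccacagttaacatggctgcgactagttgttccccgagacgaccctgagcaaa

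The motifs were those of transcription factors known for control of nuclear genes of mitochondria, searched as letters on both strands in the promoters of the 69 genes that had a RefSeq entry. The NRF1 letters GCGCATGC stood in the promoters of 8 genes (11.6%), against 3.05% of the 27025 genes with a promoter entry and 5.91% of the 10047 protein-coding genes that were also tested here. The ETS letters CCGGAAGT, which GABP binds, stood in 12 (17.4%) against 4.31% and 8.89%, and the YY1 letters AAGATGGC stood in 12 (17.4%) against 3.19% and 5.19%. At least 1 of these motifs was present in 29 of the 69 promoters (42.0%), against 9.91% and 18.5%. No motif contains another, and each was counted on its own. A gene with more than 1 promoter entry was counted if any of them held the letters. The genes without an entry were Mrpl4, Mrpl13, Mrpl15, Mrpl19, Mrpl38, Mrpl54, Mrps28, Mrps34 and Mrps35.

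The samples were checked against marker lists. The summed TPM of 10 chondrocyte genes, led by Col2a1, ran from 25792 to 27760 in the embryonic samples and from 9899 to 12972 in the adult samples, and no gene of the list was at 0 in all samples. The 9 leukocyte markers, led by Cd14, summed to 7.28 to 20.9 TPM in embryonic chondrocytes and 416 to 478 TPM in adult chondrocytes, with Cd3e listed at 0 in all 6. The 7 osteoblast markers, led by Col1a1, summed to 4922 to 6007 TPM and 566 to 1113 TPM. Among them Bglap and Bglap2 ran against the sum, at 0 in every embryonic sample but not in every adult sample. The 7 tendon and fibroblast markers summed to 3510 to 4258 TPM and 974 to 1368 TPM. Muscle markers (10 genes) summed to 95.8 to 135 TPM and 2.55 to 15.9 TPM, with Ckm at 0 in every embryonic sample and Myog and Pax7 at 0 in every adult sample. Erythroid markers (9 genes) ran from 8.12 to 258 TPM and from 12.4 to 47.5 TPM, endothelial markers (7 genes) from 12.8 to 39.0 TPM and from 7.24 to 18.3 TPM, and skin markers (5 genes) from 3.41 to 5.57 TPM and from 2.29 to 5.30 TPM, with Krt5 and Krt14 at 0 in all 6. The 4 Y-linked genes summed to 1.24 to 164 TPM in embryonic chondrocytes, whose sex is not given, and to 105 to 141 TPM in adult chondrocytes. The lowest embryonic sum was far under the adult range, so sex may not be balanced between the stages. The part of these lists in the stage differences of the mitoribosome genes was not tested.

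The genes of the mitoribosome were expressed at moderate and rather even levels. The mean TPM over the 6 samples lay between 10 and 100 for 67 of the 78 genes, under 10 for 5 and over 100 for 6, with a median of 34.9 TPM. The median was 34.4 TPM for the large subunit and 36.1 TPM for the small subunit. The highest mean was 24.9 times the lowest. Mrpl52, a protein particular to the mitochondrial large subunit, stood highest with 183, 247 and 161 TPM in embryonic chondrocytes and 267, 121 and 197 TPM in adult chondrocytes. Its stages overlapped (log2 fold change, adult minus embryonic, -0.06 ± 0.28 SE, limma adjusted p = 0.866). Mrpl17, a protein near the exit of the peptide tunnel, had 105, 206 and 161 TPM in embryonic chondrocytes and 238, 218 and 211 TPM in adult chondrocytes. All adult values of Mrpl17 were above all embryonic values, but the difference did not pass the threshold (0.55 ± 0.22, adjusted p = 0.0724), and it did so without embryonic 2 (0.77, adjusted p = 0.0246). Mrpl30 had 113, 85.7 and 118 TPM in embryonic chondrocytes and 86.2, 86.8 and 132 TPM in adult chondrocytes, which overlapped (adjusted p = 0.812). The means of Mrpl52, Mrpl48 and Mrpl17 were 196, 191 and 190 TPM, closer together than the spread between samples of any of the 3.

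At the low end, Mrpl11 had the lowest mean (7.88 TPM), followed by Mrpl47 (9.09 TPM), Mrpl44 (9.14 TPM), Mrps27 (9.49 TPM) and Mrpl19 (9.86 TPM). Mrpl44, which has the fold of a ribonuclease III, was at 3.34, 11.6 and 3.83 TPM in embryonic chondrocytes and 12.3, 13.3 and 10.5 TPM in adult chondrocytes. The second embryonic sample of Mrpl44 lay within the adult range, and the difference passed the threshold in no fit but the one without it (log2 fold change 1.02 ± 0.45, adjusted p = 0.0965 with all samples, 1.5 and adjusted p = 0.0207 without it). Mrps27, a pentatricopeptide repeat protein of the small subunit, was at 7.16, 8.89 and 7.02 TPM against 9.59, 10.5 and 13.8 TPM. These values did not overlap, yet the fitted difference of 0.49 ± 0.31 did not pass (adjusted p = 0.23). Mrpl47 overlapped, with one adult sample apart (7.90, 8.85 and 3.20 TPM against 22.3, 6.04 and 6.27 TPM), and so did Mrpl19 (8.44, 11.1 and 11.1 TPM against 10.1, 7.08 and 11.4 TPM). Mrpl23 was the member with a sample at 0, with 15.3, 26.1 and 0 TPM in embryonic chondrocytes and 12.2, 0.97 and 23.4 TPM in adult chondrocytes. Its fitted difference of 0.17 ± 1.28 (adjusted p = 0.92) had the widest error of the family, and it changed sign without adult 1, adult 3 or embryonic 3.

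**Figure D1:**
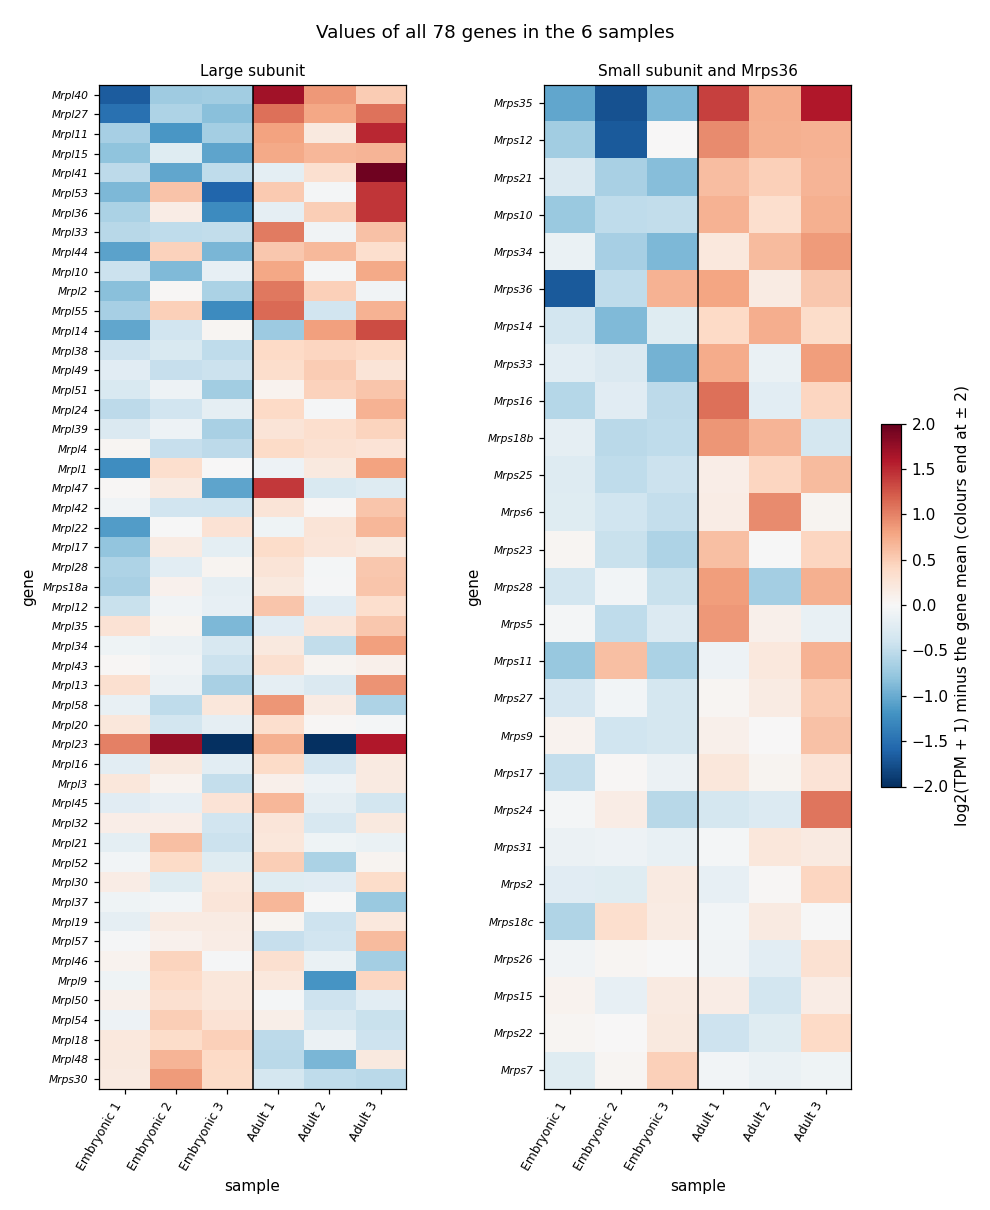
Level of each of the 78 genes in each of the 6 samples, as log2(TPM + 1) minus the gene's mean over the samples, with the large subunit on the left and the small subunit with Mrps36 on the right (columns: samples; colours end at 2 on either side of the mean). Genes are ordered by log2 fold change. The upper rows pass from blue in the embryonic samples to red in the adult samples, few rows at the bottom run the other way, and Mrpl23 has single samples far below the rest.

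The mitoribosome genes leaned towards higher levels in the adult samples. In limma's test over 13125 genes, 25 of the 78 rose in the adult samples and 3 fell at an adjusted p under 0.05, and 50 did not pass. The 25 that rose were 32.1% of the family, against 23.9% of all genes tested, and the 3 that fell were 3.85%, against 21.4%. In either direction 35.9% of the family was called, against 45.3% of all genes tested. The median log2 fold change was 0.54 for the 78 genes and 0.16 for all genes tested, with 63 positive and 15 negative values in the family. All adult values stood above all embryonic values for 29 genes (37.2%, against 30.7% of all genes) and below them for 4 (5.13%, against 25.9%), and the stages overlapped for 45. The median SD between samples on the log2 scale was 0.30 in the embryonic and 0.34 in the adult samples, against 0.26 and 0.35 over all genes tested. It was 0.23 and 0.30 over the 8624 tested genes whose mean TPM lay between the lowest and the highest of the family.

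Many calls were lost when a sample was left out. A fit with 1 sample fewer also has less power, and some calls were lost although the difference was as large. Mrpl10 went from 0.99 with all samples to 1.02 without embryonic 1, where its limma adjusted p was 0.0766. The part of the lower power in the lost calls was not tested. Of the 28 called genes, 12 that rose and 2 that fell passed the threshold each time 1 of the 6 samples was left out. Between 18 genes (without embryonic 3) and 24 genes were called in these fits, and each sample left out removed between 7 and 11 of the 28 calls. With TPM rescaled by the median of ratios, 15 rose and 3 fell, and the median fell to 0.39 while that of all genes fell to 0.03. Over all scalings, corrections and samples left out, the median of the family exceeded that of all genes by 0.22 (without adult 3) to 0.49.

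**Figure D2:**
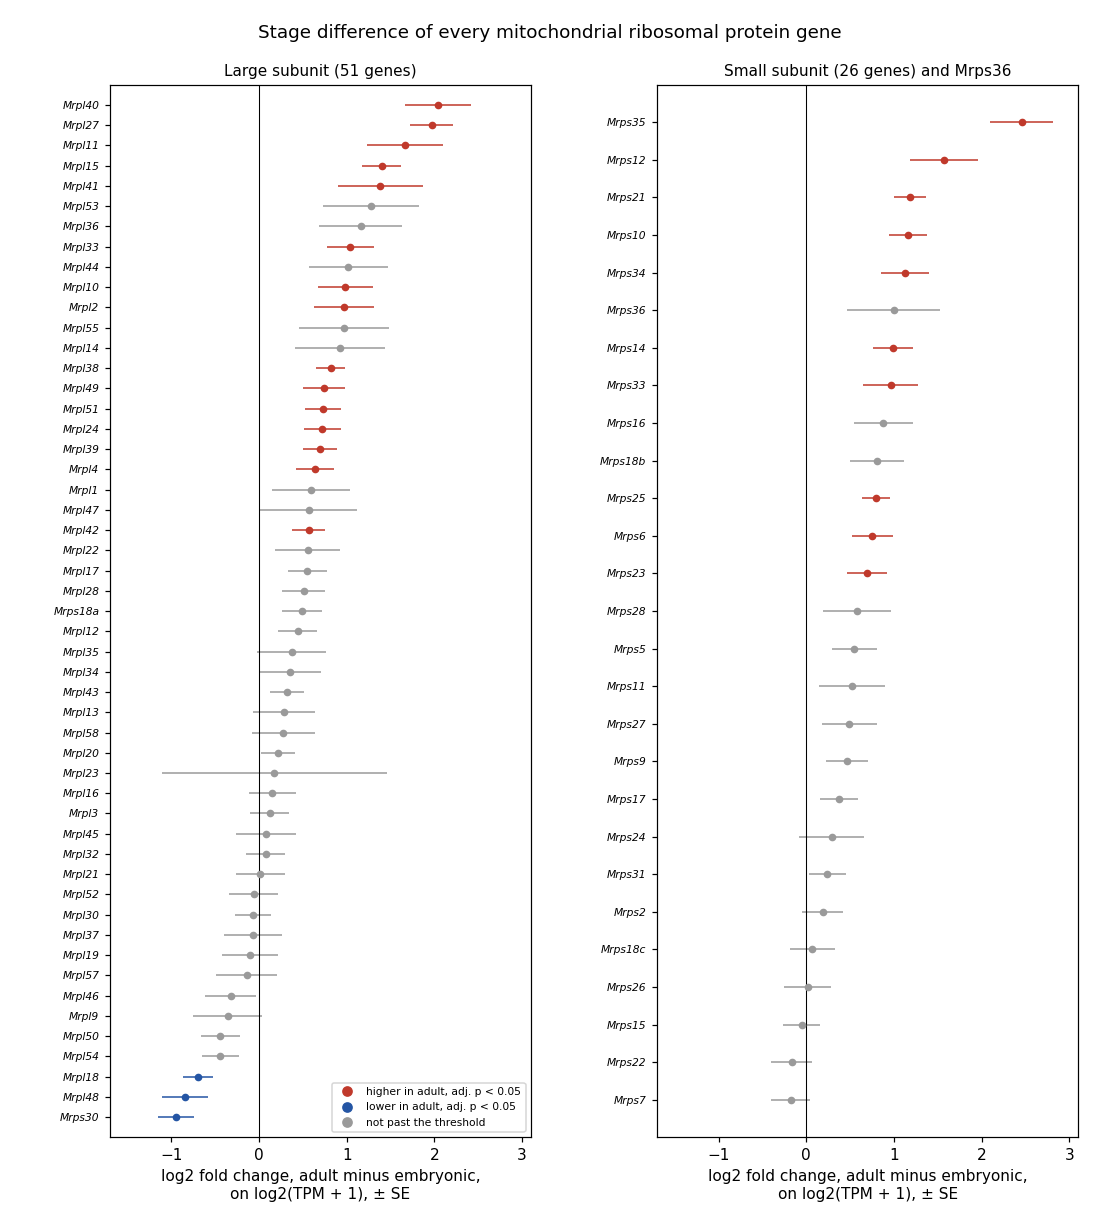
Log2 fold change (adult minus embryonic, on log2(TPM + 1)) of each gene with its SE from limma, n = 3 samples per stage, large subunit on the left and small subunit with Mrps36 on the right. Red marks the 25 genes higher in the adult samples and blue the 3 genes lower at an adjusted p under 0.05. Most points lie to the right of 0, and all 3 blue points are large-subunit genes.

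Of the 26 small-subunit genes 10 rose (38.5%, against 23.9% of all genes tested), 0 fell and 16 did not pass, with a median log2 fold change of 0.56. The count of small-subunit genes that were lower at an unadjusted p under 0.05 in limma's test was 0 as well. Of the 51 large-subunit genes 15 rose (29.4%), 3 fell and 33 did not pass, with a median of 0.49. Without embryonic 3, 10 large-subunit genes were called in place of 18. By name, 13 of the 46 proteins named after bacterial counterparts rose (28.3%) and 1 fell (median 0.54), and 12 of the 31 with mitochondrial names rose (38.7%) and 2 fell (median 0.49). A difference between the subunits or between the classes of names was not tested. The subunit counts here and the sums below cover only genes that met the symbol rule. Outside them are 5 mitoribosomal genes with other names, of which 1 rose (20%) and 0 fell, with a median of 0.06.

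In TPM as deposited, the summed level of the family was higher in every adult sample than in any embryonic sample. Sums under other scalings were not computed. The 78 genes together held 2880 to 3332 TPM in the embryonic samples (mean 3044 ± 250 SD, n = 3) and 3528 to 4440 TPM in adult chondrocytes (4079 ± 485), a ratio of 1.34. For the small subunit the sums were 853 to 906 TPM (876 ± 27.6) and 1288 to 1468 TPM (1386 ± 91.1), a ratio of 1.58, and the stages were far apart. For the large subunit they were 1969 to 2452 TPM (2153 ± 261) and 2220 to 2947 TPM (2668 ± 391), a ratio of 1.24, and the stages overlapped.

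**Figure D3:**
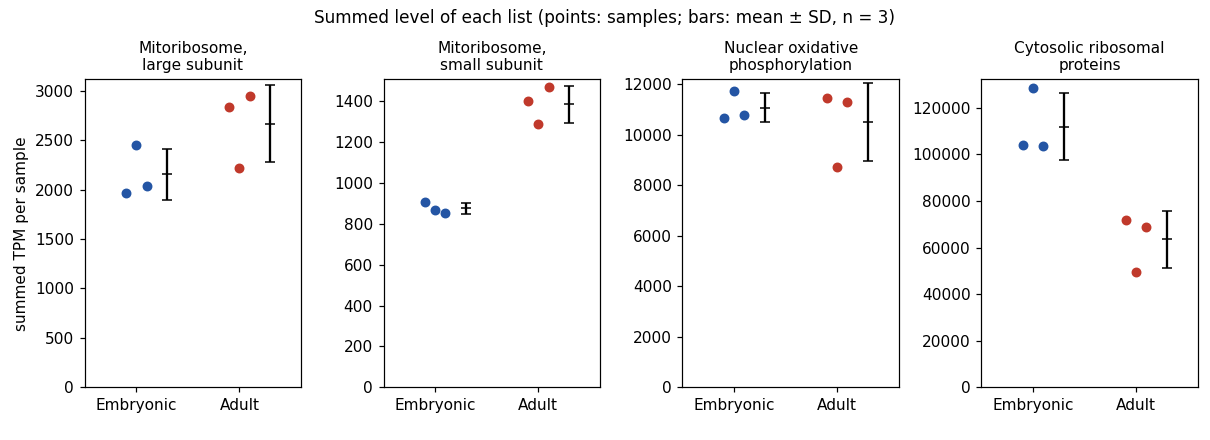
Summed TPM per sample (points, vertical axis from 0) of the large and small mitoribosomal subunits, the nuclear oxidative phosphorylation genes and the cytosolic ribosomal protein genes, with the mean ± SD of 3 samples per stage. The small-subunit sums of the stages lie apart (853 to 906 against 1288 to 1468 TPM), those of the large subunit and of oxidative phosphorylation overlap, and those of the cytosolic ribosomal proteins are lower in every adult sample.

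Among the small-subunit genes, Mrps35 had the largest rise. It was at 5.67, 3.1 and 6.33 TPM in embryonic chondrocytes and 34.5, 21.7 and 40.6 TPM in adult chondrocytes, so that the lowest adult value was far above the highest embryonic one. The log2 fold change was 2.46 ± 0.36 (SE, n = 3 per stage) with a limma adjusted p of 0.000759. Mrps35 (mS35) has no bacterial counterpart, and its gene lies at chr6:147042764-147073991 on the plus strand of GRCm38. Mrps12, the homolog of the bacterial protein S12 that lines the decoding centre, was at 16.0, 7.62 and 26.8 TPM against 52.0, 43.9 and 43.8 TPM. The embryonic samples were the more scattered, and the difference was 1.57 ± 0.39 (adjusted p = 0.0103). Mrps21, a homolog of bacterial S21, was at 56.8, 44.1 and 38 TPM against 107, 97.4 and 111 TPM. Its samples were close within each stage and the stages lay apart (1.19 ± 0.18, adjusted p = 0.000929). Mrps10 was at 15.1, 18.1 and 18.2 TPM against 42.9, 33.0 and 43.3 TPM (1.16 ± 0.22, adjusted p = 0.00278), and Mrps34, another protein without a bacterial counterpart, at 24.7, 16.8 and 14.2 TPM against 31.6, 42.8 and 49.9 TPM (1.13 ± 0.27, adjusted p = 0.0096). Neither gene had overlapping stages, and all 5 of these rises passed the threshold whichever sample was left out.

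Mrps25, also particular to mitochondria, was the most abundant small-subunit gene, at 92, 76.8 and 81.1 TPM in embryonic chondrocytes and 120, 149 and 170 TPM in adult chondrocytes. It rose by 0.80 ± 0.16 (adjusted p = 0.00443) and passed in every fit that left out a sample. Mrps14 did so as well (0.99, adjusted p = 0.0074). The calls of Mrps6, Mrps23 and Mrps33 were each lost in most of these fits. The small-subunit genes with the lowest fold changes, Mrps7 (-0.18), Mrps22 (-0.17) and Mrps15 (-0.05), all had overlapping stages and adjusted p-values of 0.536 to 0.851.

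The S18 paralogs differed in where their values lay. All 3 are related to the bacterial protein S18, but only Mrps18c bears its name in the nomenclature and is counted among the 46. Mrps18c and Mrps18b sit in the small subunit and Mrps18a in the large one. Mrps18b was at 40.9, 31.7 and 32.4 TPM in embryonic chondrocytes and 86.1, 75 and 36.2 TPM in adult chondrocytes. The third adult sample lay within the embryonic range, and the difference of 0.81 ± 0.31 did not pass with all samples (adjusted p = 0.0593) but did without that sample (1.19, adjusted p = 0.00287). Mrps18a was at 36.6, 61.9 and 51.5 TPM against 66.9, 57.4 and 85.6 TPM, and Mrps18c at 26.2, 50.9 and 45.5 TPM against 38.6, 45.5 and 40.1 TPM. Both overlapped, with differences of 0.49 ± 0.23 (adjusted p = 0.117) and 0.07 ± 0.26 (adjusted p = 0.845). Differences between the paralogs were not tested.

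Among the large-subunit genes the largest rises were those of Mrpl40 and Mrpl27, whose proteins lie in the central protuberance, the crest of the large subunit. Mrpl40 was at 6.92, 14.4 and 14.5 TPM in embryonic chondrocytes and 79.8, 44.7 and 34.7 TPM in adult chondrocytes (2.04 ± 0.38, adjusted p = 0.00257). Mrpl27, the homolog of bacterial L27, which reaches towards the site of peptide bond formation, was at 18, 33.9 and 29.0 TPM against 114, 90.3 and 113 TPM (1.97 ± 0.24, adjusted p = 0.000302). In both genes the lowest adult value was more than 2 times the highest embryonic one. Mrpl15 was at 26.2, 39.0 and 21.7 TPM against 78.6, 74.1 and 74.6 TPM, with adult samples nearly level (1.40 ± 0.22, adjusted p = 0.00125). These 3 rises passed whichever sample was left out, and so did those of Mrpl33 (1.04, adjusted p = 0.0131) and Mrpl38 (0.82, adjusted p = 0.00399).

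Other rises of the large subunit did not pass in every fit that left out a sample. Mrpl11, which with Mrpl10 and Mrpl12 belongs to the stalk that recruits translation factors, was at 3.53, 2.20 and 3.50 TPM in embryonic chondrocytes and 11.5, 7.17 and 19.4 TPM in adult chondrocytes (1.67 ± 0.43, adjusted p = 0.0135). Without embryonic 2 its difference was 1.5 (adjusted p = 0.0508). Mrpl41 was at 18.2, 12.5 and 18.5 TPM against 23.4, 33.6 and 106 TPM. The third adult sample was far above the other two, and the difference of 1.38 ± 0.49 (adjusted p = 0.0455) fell to 0.76 without it (adjusted p = 0.0765). The call of Mrpl41 was also lost without adult 2 or any of the embryonic samples, with adjusted p-values up to 0.15. A further 11 called genes of both subunits, with log2 fold changes of 0.56 to 0.99 and adjusted p-values of 0.0164 to 0.0469, lost their call when at least 1 of the samples was left out (adjusted p-values of 0.0508 to 0.154 in those fits). They were Mrpl2, Mrpl4, Mrpl10, Mrpl24, Mrpl39, Mrpl42, Mrpl49, Mrpl51, Mrps6, Mrps23 and Mrps33.

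The 3 genes that fell were Mrps30, Mrpl48 and Mrpl18, all of the large subunit. Mrps30, also known as programmed cell death protein 9, was at 61.0, 98.2 and 70.7 TPM in embryonic chondrocytes and 41.7, 37.4 and 36.6 TPM in adult chondrocytes. Its gene lies at chr13:118378381-118387252 on the minus strand. No value overlapped, and the difference was -0.95 ± 0.20 (adjusted p = 0.00547). Mrpl18 was at 68.2, 76.0 and 82.8 TPM against 40.9, 54.3 and 44.1 TPM (-0.70 ± 0.17, adjusted p = 0.0103). Both falls passed whichever sample was left out. Mrpl48, among the most abundant members, was at 205, 287 and 234 TPM against 122, 94.2 and 204 TPM (-0.84 ± 0.26, adjusted p = 0.0285). The third adult value of Mrpl48 nearly reached the lowest embryonic value, and the call was lost without adult 1, adult 2, embryonic 2 or embryonic 3 (-0.60 to -0.86, adjusted p = 0.0777 to 0.112).

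**Figure D4:**
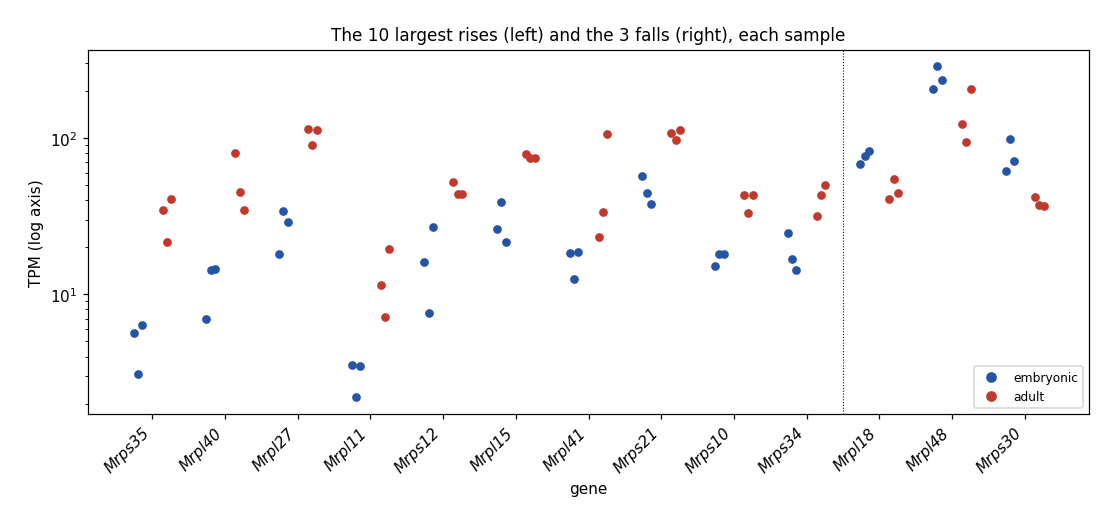
TPM (log axis) in each sample of the 10 genes with the largest rises and the 3 genes that fell, blue for the 3 embryonic and red for the 3 adult samples. The stages do not overlap in any of the 13 genes, the third adult sample of Mrpl41 stands at 106 TPM above the others at 23.4 and 33.6 TPM, and the third adult sample of Mrpl48 lies close to the embryonic values.

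Large-subunit proteins were also grouped by place, and differences between places were not tested. Only proteins whose place was held certain were assigned, so the groups may be incomplete. For comparison, 23.9% of all genes tested rose and 21.4% fell, and 7273 of the 13125 log2 fold changes were positive. Of 8 proteins of the central protuberance, Mrpl27, Mrpl38 and Mrpl40 rose, Mrpl18 and Mrpl48 fell, and Mrpl35, Mrpl46 and Mrpl55 did not pass. Of 5 proteins of the stalk, Mrpl10 and Mrpl11 rose, while Mrpl12 (0.44, adjusted p = 0.133), Mrpl53 (1.28, adjusted p = 0.0886) and Mrpl54 (-0.44, adjusted p = 0.118) did not pass, and 4 of the 5 log2 fold changes were positive. Of 8 proteins around the exit of the peptide tunnel, where new chains meet the inner membrane, Mrpl24 and Mrpl39 rose and 6 did not pass, Mrpl45, the membrane anchor, among them with a log2 fold change of 0.08 (adjusted p = 0.861). The share of these 8 that rose, 25%, was near that of all genes tested. All 8 of these log2 fold changes were positive, up to 1.02, with a median of 0.56. In the whole family 63 of the 78 were positive. Mrps36, of the 2-oxoglutarate dehydrogenase complex, was at 4.74, 12 and 28.8 TPM in embryonic chondrocytes and 31, 19.6 and 25.8 TPM in adult chondrocytes. The third embryonic value lay among the adult ones, and the difference passed without it (1.59, adjusted p = 0.0273) but not with all samples (1.00 ± 0.53, adjusted p = 0.156).

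Opposite-strand neighbours were called at a share near the background. Of the 33 neighbours, 30 were tested, of which 8 rose and 6 fell (46.7% called, against 45.3% of all genes). Mrpl27 rose while Eme1, its neighbour, fell from a mean of 13.2 to 2.15 TPM (log2 fold change -2.08, adjusted p = 0.0225), a call lost without adult 2, adult 3, embryonic 1 or embryonic 2. Mrpl49 rose by 0.74 beside Fau, a cytosolic ribosomal protein gene fused to a ubiquitin-like sequence, which fell (-1.79, adjusted p = 0.000513), and Mrpl51 rose by 0.73 beside Ncapd2, a condensin gene, which fell (-1.29, adjusted p = 0.00229). Mrpl18 fell together with Tcp1 (-0.85, adjusted p = 0.000897) and Mrpl48 together with Rab6a (-0.54, adjusted p = 0.032), whose call held only without adult 1 among the fits that left out a sample. In 3 pairs both genes rose, Mrpl2 with Klc4 (0.97, adjusted p = 0.0301), Mrpl41 with Pnpla7 (2.41, adjusted p = 0.00345) and Mrps34 with Eme2 (1.45, adjusted p = 0.0252). The call of Klc4 held only without adult 1 among the fits that left out a sample, and that of Eme2 only without adult 1 or embryonic 1. Mrps12 rose while Sars2 had means of 5.04 and 4.84 TPM and did not pass (-0.25, adjusted p = 0.751). In the pair of members, Mrps11 was at 19.9, 52.5 and 21.8 TPM in embryonic chondrocytes and 31.7, 39.8 and 55.9 TPM in adult chondrocytes, and Mrpl46 at 25.3, 33.1 and 23.8 TPM and then 30.3, 22 and 14.7 TPM. Both overlapped and neither passed (0.52 and -0.33, adjusted p = 0.279 and 0.392). Of the promoters with an entry, at least 1 of the motifs named above was in 8 of the 20 of genes that rose (40%), in 19 of the 46 of genes that did not pass (41.3%) and in 2 of the 3 of genes that fell. These were Mrpl18 and Mrpl48, with the ETS letters. Mrpl48 has 4 promoter entries, and the letters stand only in that at chr7:100583081-100583380, not in those near the start beside Rab6a.

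Some values may share reads with other genes. Exons of 23 members overlap those of another gene in the table, among them Mrpl27 with Eme1, Mrpl18 with Tcp1, Mrpl48 with Rab6a and Mrps34 with Nme3 and Mapk8ip3, and whether strand was used in counting is not given in the sources used here. Of these 23 genes 6 rose (26.1%) and 2 fell (8.70%), and of the other 55, 19 rose (34.5%) and 1 fell (1.82%). Of all genes tested 23.9% rose and 21.4% fell. For 13 members, Mrpl27, Mrps10, Mrps21, Mrpl41 and Mrpl48 among them, another annotated gene carries a near-identical copy of the coding sequence, and their values are uncertain to that extent. Of the 65 members without such a copy 18 rose (27.7%, against 23.9% of all genes tested) and 2 fell, with a median log2 fold change of 0.47. Of the 13 with one 7 rose (53.8%) and 1 fell, with a median of 0.96, and the part of the copies in these counts was not tested. Members had short transcripts (median length 1336 bases, against 2962 bases over all genes tested). Across the 78 genes the log2 fold change had a Spearman correlation of -0.11 with transcript length and 0.14 with GC content, as a description across genes that share the same libraries.

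The lists for assembly of the mitoribosome, its translation factors and its tRNA synthetases had positive medians. Of all genes tested 23.9% rose and 21.4% fell, with a median log2 fold change of 0.16. Of 25 genes for ribosome assembly and rRNA modification 9 rose (36%) and 0 fell in limma's test (10 and 0 at an unadjusted p under 0.05). The median log2 fold change of these 25 was 0.69. Mettl17, an assembly factor, was at 6.22, 9.90 and 5.31 TPM in embryonic chondrocytes and 27.6, 46.4 and 26.8 TPM in adult chondrocytes (2.08 ± 0.33, adjusted p = 0.00127). Mrm2, a methyltransferase of mitochondrial rRNA, stood at the low values of 1.86, 0.0731 and 0.145 TPM and then 3.33, 7.03 and 5.79 TPM, and its call (2.02, adjusted p = 0.0154) was lost without adult 2, embryonic 2 or embryonic 3. Of 16 translation factors 7 rose (43.8%) and 1 fell (6.25%), with a median of 0.96. Without embryonic 1 the number called was 5 in place of 8. Mtif3, the initiation factor, rose from 21, 9.06 and 9.93 TPM to 66.3, 43.5 and 92.5 TPM (2.28 ± 0.37, adjusted p = 0.0013), and Taco1, an activator of cytochrome oxidase translation, rose by 1.93 (adjusted p = 0.0103). Slirp, an RNA-binding partner of Lrpprc that stabilises mitochondrial messages, was the gene that fell (-0.92, adjusted p = 0.0355), a call lost without adult 1, adult 3, embryonic 1 or embryonic 2.

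Of 17 mitochondrial tRNA synthetase genes 6 rose and 0 fell in limma's test (9 and 0 at an unadjusted p under 0.05), with a median of 0.90. The share that rose was 35.3%, against 23.9% of all genes tested. Hars2 rose from 14.6, 8.55 and 3.81 TPM to 28.3, 34.2 and 30.7 TPM (1.84 ± 0.41, adjusted p = 0.00677). Lars2 had values of quite another size, 8120, 6243 and 4601 TPM in embryonic chondrocytes and 23392, 36901 and 9813 TPM in adult chondrocytes. The median of the 17 genes was 4.52 to 6.17 TPM in the embryonic samples and 9.73 to 11.4 TPM in the adult samples. Whether the Lars2 values come from its own messages alone was not tested. The call of Lars2 (1.73, adjusted p = 0.0111) was lost without embryonic 3 and under quantile normalization (0.80, adjusted p = 0.133). Of 5 mitoribosomal genes with other names, Aurkaip1 rose (0.64, adjusted p = 0.0199, lost without adult 3, embryonic 1 or embryonic 3) and 4 did not pass (median 0.06). Among 10 genes for transcription and replication of mitochondrial DNA 4 rose (40%) and 1 fell (10%), with a median of 1.00 and 3 called without embryonic 3. Polrmt, the mitochondrial RNA polymerase, rose from 28.3, 23.6 and 17.1 TPM to 60.7, 85.2 and 88.8 TPM (1.73 ± 0.24, adjusted p = 0.000561). Tfam, which packages mitochondrial DNA and helps the polymerase to start, fell from 107, 143 and 145 TPM to 50.6, 57.3 and 71.5 TPM (-1.13 ± 0.19, adjusted p = 0.00143). Polg2, the accessory subunit of the DNA polymerase, rose by 1.78 (adjusted p = 0.0208, lost without adult 3, embryonic 2 or embryonic 3).

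Regulators of mitochondrial biogenesis had a negative median. Of 8 such genes tested 0 rose and 5 fell in limma's test, also at an unadjusted p under 0.05 (median -0.59, and 3 called without embryonic 3). The share that fell was 62.5%, against 21.4% of all genes tested. Ppargc1b was under the filter. Myc fell from 586, 505 and 540 TPM to 201, 186 and 215 TPM (-1.43 ± 0.12, adjusted p = 3.78e-05), and Yy1 from 96.3, 121 and 96.1 TPM to 41.3, 63.6 and 62.9 TPM (-0.91 ± 0.20, adjusted p = 0.00671). Nrf1 (-0.72), Pprc1 (-0.61) and Gabpb1 (-0.58) fell as well, with adjusted p-values of 0.00525 to 0.036. The call of Nrf1 was lost without embryonic 1 or embryonic 3, and that of Gabpb1 without any sample but embryonic 1. NRF1 and YY1 bind motifs that were counted in the promoters, and Gabpb1 encodes the partner of the DNA-binding GABP subunit.

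Most ribosomal protein genes of the cytosol fell. Of 76 cytosolic ribosomal protein genes 0 rose and 61 fell in limma's test (0 and 65 at an unadjusted p under 0.05), with a median of -0.85. The share that fell was 80.3%, against 21.4% of all genes tested. Their summed level went from 103582 to 128409 TPM in the embryonic samples to 49624 to 71959 TPM in adult chondrocytes. Rps16 and Rps23 fell most, with log2 fold changes of -1.52 and -1.39 (adjusted p = 0.00169 and 0.000804). Of 84 nuclear genes of oxidative phosphorylation 12 rose (14.3%) and 12 fell (14.3%), shares under the 23.9% and 21.4% of all genes tested. Their median was 0.04, with overlapping sums of 10686 to 11750 TPM and 8729 to 11463 TPM. Without embryonic 1, embryonic 2 or embryonic 3 the number called was 15, 15 and 14 in place of 24. Cox4i2, a cytochrome oxidase subunit, rose (1.25, adjusted p = 0.00648). Cox6a2 was listed at 0 in every embryonic sample and at 1.09, 8.18 and 3.91 TPM in adult chondrocytes, and its call (adjusted p = 0.0176) was lost without adult 2. Cox6b2 and Ndufb4 fell most (-3.92 and -1.30, adjusted p = 0.00128 and 0.00788). Of 27 import genes 3 rose (11.1%) and 3 fell (11.1%), with a median of 0.05. These shares too were under those of all genes tested. Timm22 (1.19, adjusted p = 0.0156) and Timm21 (1.77, adjusted p = 0.0397) rose, and Timm23 (-1.55, adjusted p = 0.0275) and the chaperonin gene Hspd1 (-0.66, adjusted p = 0.00732) fell. These Timm calls were lost without adult 1, embryonic 1 or embryonic 3, that of Timm21 also without adult 3 and that of Timm23 also without adult 2. Of the import calls 3, 2 and 3 were left without adult 1, embryonic 1 and embryonic 3. The genes of the 13 proteins encoded by mitochondrial DNA itself have no row in the table of values, so their levels could not be read.

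**Figure D5:**
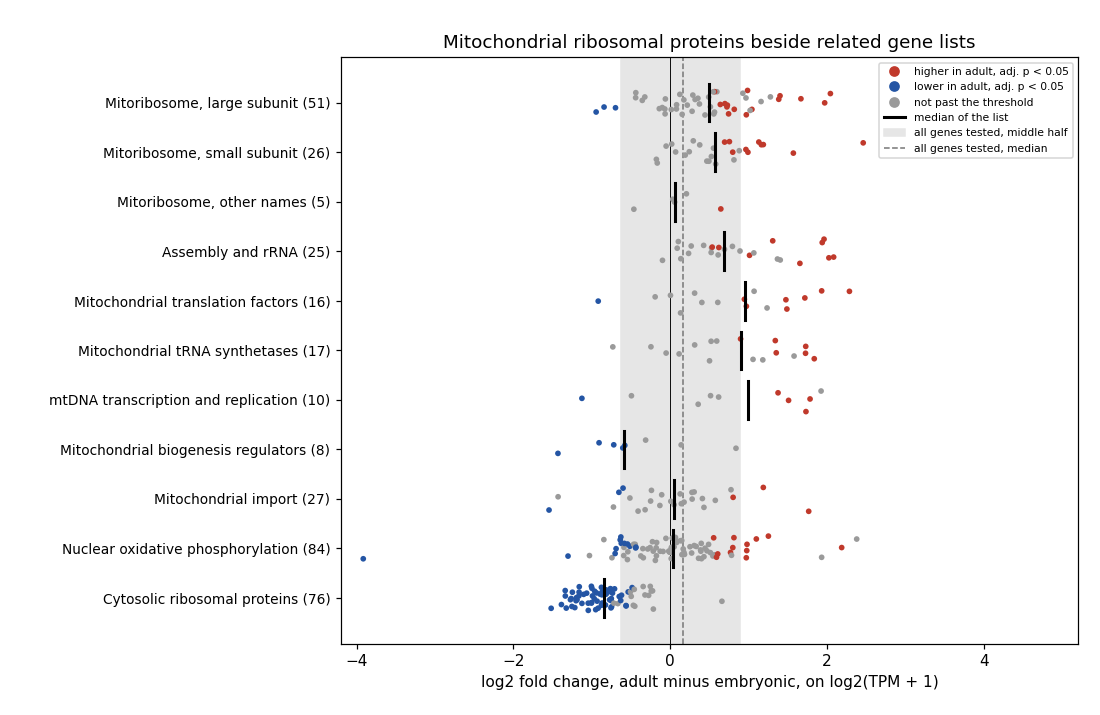
Log2 fold change (adult minus embryonic, on log2(TPM + 1)) of each tested gene (points, number of genes in brackets) in the 2 mitoribosomal subunits and the related lists, with the median of each list as a black bar. The grey band and dashed line show the interquartile range and median of all 13125 genes tested. Both subunits have medians to the right of the dashed line (0.49 and 0.56 against 0.16), the oxidative phosphorylation genes centre near 0 and the cytosolic ribosomal proteins lie almost all to the left.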

How the data were processed

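Gene expression of sorted chondrocytes was compared between 3 embryonic and 3 adult mouse knee samples. The values deposited by the authors are log2(TPM + 1) for each gene, made with RSEM after mapping to GRCm38, and no log2 value was changed before the main test. The methods name RefSeq annotation, while the deposited rows carry Ensembl identifiers. No RSEM version or gene filter is given in the sources used here. The labels name a Kapa mRNA-Seq kit and the methods Nugen Ovation V2 with a Kapa library kit. TPM keeps no depth, so the depth behind each value is unknown and no counting interval is given.

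Symbols came from GENCODE M21, which named 21902 of the 22032 identifiers (130 had none, and 3 symbols were shared). Members and lists were chosen with earlier results of these data known. Roles of the proteins were assigned from textbook knowledge. Stage was the only term in a linear model fitted in R 4.3.3 with limma 3.58.1 (lmFit and trended eBayes) to log2(TPM + 1), whose pseudocount is 1. Genes entered if they averaged 1 TPM or more. Fold changes on this scale understate the change of low genes. Genes were called at an adjusted p (Benjamini-Hochberg, over all 13125 genes) under 0.05, and all adjusted p-values are from this limma test. EBSeq, which the methods name, needs counts and was not used. The labels call the samples biological replicates without tying them to animals, so p-values measure the spread between these samples. The script was tested on simulated data. Lists were described by counts and medians, without set tests. The value of 1 marker gene is not reported here.

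Near-identical copies were found with BLAST+ 2.17.0 as coding sequences that matched a different gene over 90% or more of their length with 95% or more of the bases identical. Genes named in the text were those with the 10 largest changes without overlap of the stages past the threshold in each direction, the 5 highest and 5 lowest means, the Mrps18 paralogs, Mrps36, members at 0 in a sample and, per related list, the 2 largest called changes in each direction. Others named with values (Mrpl33, Mrpl38, Mrps14, the stalk proteins, Mrpl45, the lowest small-subunit genes, neighbours of members, and Nrf1, Pprc1 and Gabpb1) were chosen after their values were seen. Alternatives were a pseudocount of 0.1, no filter, a filter at 5 TPM, quantile and median-of-ratios scaling, TPM without the 20 highest genes, eBayes without trend and robust, a replicate block, a threshold of 0.01, loess corrections (span 0.3) for GC content and transcript length, and leaving out each sample.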

Additional observations from a re-analysis of the deposited data

How the results depend on the processing

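Most values of named genes kept their direction and side of the threshold: of 879 values of single named genes under an alternative, 778 stayed, 73 fell short of the threshold, 9 newly passed and 19 changed sign. Many of these genes were named for large called changes in the same data, and several alternatives leave the fold change as it was. The share that stayed therefore does not describe the family. Of the 28 called members, 17 to 21 kept their call with 1 sample left out. The number of members called was 18 with eBayes without trend (16 of them higher), 18 with median-of-ratios scaling (15 higher) and 11 at an adjusted p under 0.01 (10 higher, 1 lower). Under these 3 alternatives the large subunit had 11, 11 and 5 genes called, and the small subunit had 6 at the stricter threshold. Under median-of-ratios scaling the median log2 fold change was 0.39 for the members, 0.35 for the large and 0.42 for the small subunit. At an adjusted p under 0.01 the numbers called were 0 for mitoribosomal genes with other names, 5 for assembly, 2 for translation factors, 3 for tRNA synthetases, 3 for mitochondrial DNA, 1 for import, 3 for biogenesis and 10 for oxidative phosphorylation. Without trend they were 0 for other names, 3 for import and 13 for oxidative phosphorylation, and quantile normalization gave 2 for other names. The stricter threshold calls fewer genes by construction, and for the other settings the cause was not tested.

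With 1 sample left out, members called ran from 18 to 24, members higher from 16 to 22, members lower from 2 to 3 and the median from 0.37 to 0.64. The large subunit ran from 10 to 13 called with a median of 0.36 to 0.64, and the small subunit from 7 to 11 with a median of 0.51 to 0.67. The ranges were 0 to 1 for other names, 5 to 8 for translation factors, 3 to 5 for mitochondrial DNA, 2 to 7 for import, 3 to 4 for biogenesis and 14 to 26 for oxidative phosphorylation. Signs changed only for named genes with small or scattered differences. The log2 fold change was -0.075 for Mrps18c under median-of-ratios scaling, 0.033 for Mrpl52 and -0.00071 for Mrps18c under quantile normalization, 0.11 for Mrpl52 and 0.038 for Mrpl19 under the length correction and 0.029 for Mrpl30 and 0.033 for Mrpl52 without the 20 highest genes. With a sample left out it ran from -0.23 to 0.078 for Mrpl19, from -1.29 to 1.24 for Mrpl23, from -0.27 to 0.037 for Mrpl30, from -0.0027 to 0.86 for Mrpl47, from -0.32 to 0.24 for Mrpl52 and from -0.22 to 0.25 for Mrps18c.

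Equal replicate numbers did not pair the samples: the deviations of same-numbered samples from their stage means correlated at -0.0088, -0.017 and -0.022. With the replicate number as a block, 27 members were called (24 higher, 3 lower), and the numbers alone give no reason to prefer that fit. With 3 samples per stage and no depth in TPM, small differences of low genes were not detectable.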
